A study of Homo sapiens with 6 samples.

Results

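The mitochondrial ribosomal proteins were followed in MDA-MB-231 cells, an established human breast cancer line without estrogen receptor expression, after depletion of LSD1. LSD1, encoded by KDM1A, is an enzyme that demethylates histones and works in complexes that repress or activate transcription. Cells transfected with an siRNA against LSD1 (3 arrays) were compared with cells transfected with a control siRNA (3 arrays), all harvested after 6 days and 2 transfections, with 2.5 ug of total RNA per array. The arrays were Affymetrix expression arrays, and each group was described by the submitters as 3 biological replicates of the same line. The members are the genes whose platform symbol starts with MRPL or MRPS and a number and that have a probe set carrying that symbol alone. They are 75 protein-coding genes of 19775 genes named this way, 48 of the large subunit (83 probe sets) and 27 of the small subunit (57 probe sets). The same pattern also took 2 non-coding symbols, MRPL20-AS1 and MRPL45P2, with 1 probe set each, which are given apart. MRPL53 and MRPS24 have only probe sets shared with another symbol and were not used.

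Mitochondria translate the proteins encoded by their own DNA, all of them subunits of the respiratory chain or of ATP synthase, on a ribosome of their own. Every protein of that ribosome is encoded in the nucleus, made in the cytosol and imported, where it joins the mitochondrial ribosomal RNAs. Many members are relatives of bacterial ribosomal proteins, and many others have no bacterial counterpart. The symbol does not always give the place: MRPS30 and MRPS18A sit in the large subunit despite their names.

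The targeted gene, the cell line and the arrays were checked first. KDM1A had a signal of 291, 184 and 228 on the LSD1 siRNA arrays, against 2540, 2493 and 2295 on the control arrays. VIM, CD44, EGFR and CAV1, markers of these mesenchymal-type cells, had mean signals of 3959 or more in both groups, and ESR1 and PGR had means of 75.7 or less. ERBB2 had means of 507 with LSD1 siRNA and 581 with control siRNA, and CDH1 129 and 163. Of 13 measured markers of other cell types, 7 were bright enough to be tested and 1, the epithelial keratin gene KRT18, was lower with LSD1 siRNA. KRT18 was bright, with means of 12146 with LSD1 siRNA and 16731 with control siRNA. The other luminal epithelial markers had 513 and 523 (GATA3) and 231 and 216 (FOXA1). LUM, a fibroblast marker below the intensity filter, had 98.3, 86.3 and 101 with LSD1 siRNA and 4.58, 0.595 and 0.518 with control siRNA. The summed signal of 10 leukocyte, endothelial and fibroblast markers, LUM among them, was 825 to 966 on the LSD1 siRNA arrays and 832 to 880 on the control arrays, and their part in the results was not tested. The ACTB 3' to 5' signal ratio, a measure of RNA integrity, was 1.33 to 1.39 with LSD1 siRNA and 1.43, 1.33 and 1.74 with control siRNA, the last on control replicate 1.

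Mitochondrial ribosomal protein genes were more often lower than higher with LSD1 siRNA. Of the 75 members, 36 (48%) were lower, 3 (4%) were higher and 36 did not pass limma's test at an adjusted p of 0.05 over all genes. Of all 13822 genes tested, 41.1% passed in either direction, 21.3% lower and 19.8% higher. All 75 members were above the intensity filter. Members were chosen by symbol, but the family itself was selected on the measured log2 changes of this same comparison, so its counts describe these arrays and support nothing further. Fewer cells of a kind and less RNA per cell cannot be told apart in such bulk RNA, and the deposited signals are scaled to a common mean.

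The changes were small. The 36 lower members had 52.6% to 89.9% of their control signal, and 6 of them fell by more than 1.5-fold. Of the 3 higher members, 1 rose by more than 1.5-fold. Of all 13822 genes tested, 1052 passed as lower and 1160 as higher by more than 1.5-fold. The median log2 change, LSD1 siRNA minus control siRNA, was -0.17 over the 75 members and -0.02 over all genes tested. Of the 36 members that did not pass, 24 had a negative and 12 a positive value, between -0.19 and 0.18. Members have bright probe sets with a median standard error of 0.07, where the median over all genes was 0.11. Among the 3366 genes between the 10th and 90th percentile of the members' own log2 signal, 32.7% were lower and 28.8% were higher, with a median of -0.02.

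By the probe set used for each gene, all 3 members that rose were in the large subunit. Of its 48 genes, 24 were lower, 3 were higher and 21 did not pass, with a median log2 change of -0.17. Of the 27 small subunit genes, 12 were lower, 0 were higher by limma's test and 15 did not pass, with a median of -0.16. Among these, MRPS10 was at 0.10 in the set used and did not pass. When every probe set was tested, other MRPS10 sets passed as higher (0.24 and 0.21, limma adjusted p = 0.0288 and 0.0219). At an unadjusted limma p of 0.05, 1 small subunit gene was higher and 13 were lower. At that threshold 3455 of all 13822 genes tested were lower and 3193 were higher. Arrays with LSD1 siRNA lay wholly on one side of the control arrays for 26 lower and 3 higher large subunit genes and for 12 lower and 0 higher small subunit genes. Over all genes tested, such separation was found for 26.2% lower and 24.2% higher. With MRPS30 and MRPS18A counted where they sit, 26 of 50 large subunit genes and 10 of 25 small subunit genes were lower. The difference between the subunits was not tested.

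**Figure D1:**
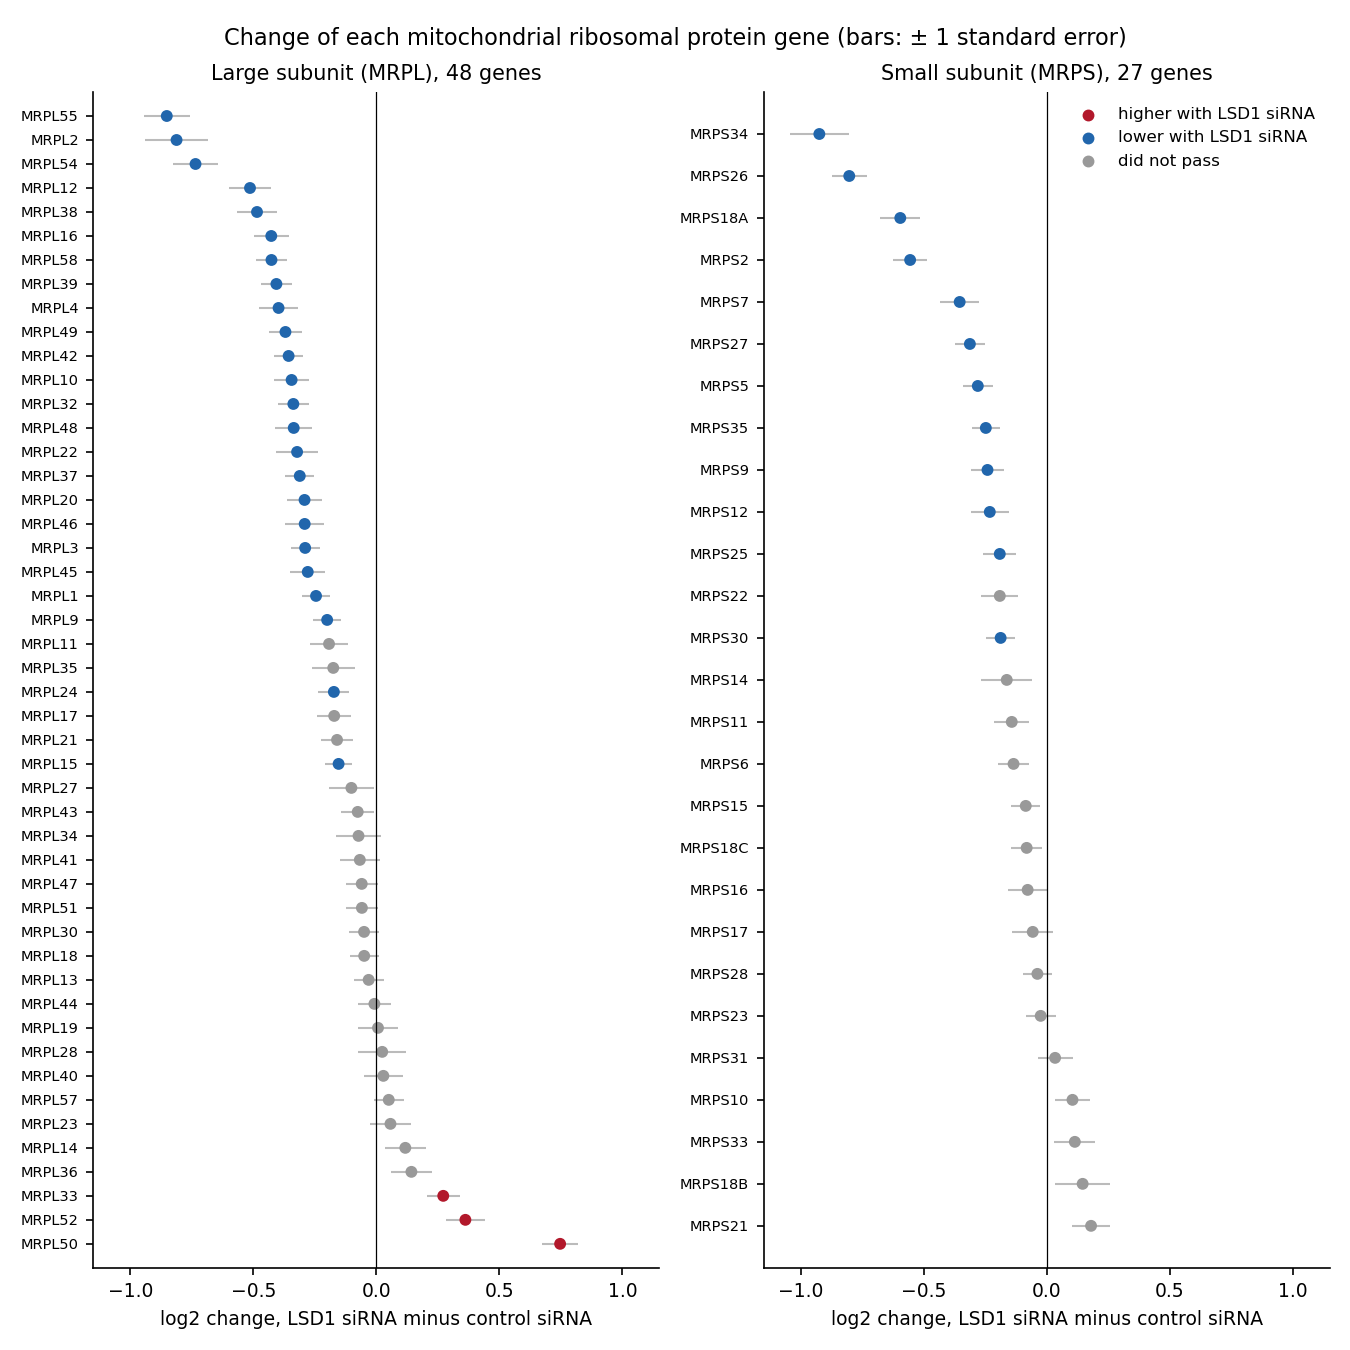
Log2 change (LSD1 siRNA minus control siRNA, x axis) of the 48 large subunit genes (left) and the 27 small subunit genes (right). Each gene is shown by its brightest probe set, with x-suffix sets serving only genes without another set. Bars are 1 standard error, and colours give limma's call at an adjusted p of 0.05. Most points lie left of 0, and the 3 red points at the right are MRPL33, MRPL52 and MRPL50.

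MRPL50, a large subunit protein without a bacterial counterpart, had signals of 2829, 2845 and 2942 with LSD1 siRNA and 1718, 1550 and 1861 with control siRNA. It rose by 0.75 on the log2 scale, with a standard error of 0.07, and the groups lay far apart. MRPL52, another protein of this kind, had 5085, 5503 and 5023 with LSD1 siRNA against 4461, 4136 and 3579 with control siRNA. Its rise was 0.36 ± 0.08 (SE), and every LSD1 siRNA array lay above every control array. MRPL33, a relative of bacterial L33, had 8415, 8290 and 7706 with LSD1 siRNA and 7194, 6760 and 6270 with control siRNA. It rose by 0.27 ± 0.07 (SE), also without overlap.

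Among the large subunit genes that fell, MRPL55 had the largest change. It had 586, 536 and 568 with LSD1 siRNA against 1051, 1130 and 913 with control siRNA, and its log2 change was -0.85 ± 0.09 (SE). MRPL2, a relative of bacterial L2, which lies by the site of peptide bond formation, had 492, 334 and 365 with LSD1 siRNA and 699, 686 and 711 with control siRNA. The 3 control arrays of MRPL2 nearly coincided, while LSD1 siRNA replicate 1 stood above the other two. Its change was -0.81 ± 0.13 (SE). MRPL54, with no bacterial counterpart, had 1933, 1667 and 1637 with LSD1 siRNA and 3302, 2806 and 2650 with control siRNA, a change of -0.73 ± 0.09 (SE). For all 3 genes every LSD1 siRNA array was below every control array.

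Further falls in the large subunit came from proteins of different roles. MRPL12, a relative of the bacterial stalk protein L7/L12 that recruits translation factors, had 2190, 2201 and 2139 with LSD1 siRNA against 3489, 3214 and 2690 with control siRNA, a change of -0.51 ± 0.09 (SE). MRPL10, which anchors that stalk, changed by -0.34 ± 0.07 (SE). MRPL58, a peptidyl-tRNA hydrolase built into the large subunit that acts on stalled ribosomes, had 2070, 2031 and 2008 with LSD1 siRNA and 2707, 2926 and 2599 with control siRNA. Its change was -0.43 ± 0.06 (SE). MRPL38 was at -0.48, MRPL16 at -0.43 and MRPL39 at -0.41, and their groups did not overlap. At the other end, MRPL15 (-0.15) and MRPL24 (-0.17) passed narrowly, and MRPL41 (-0.07), which has also been linked to cell death control, did not pass. MRPL15 did not pass without any 1 array other than control replicate 1 (-0.13 to -0.17, limma adjusted p = 0.054 to 0.147). MRPL24 did not pass without any 1 array other than control replicate 3 (-0.13 to -0.18, limma adjusted p = 0.083 to 0.156).

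In the small subunit, MRPS34 had the largest change of all members. This protein, mutated in some patients with Leigh syndrome, had signals of 706, 713 and 514 with LSD1 siRNA against 1117, 1283 and 1276 with control siRNA. Its log2 change was -0.92 ± 0.12 (SE), and LSD1 siRNA replicate 3 was the lowest array. MRPS26, with no bacterial counterpart, had 1333, 1439 and 1364 with LSD1 siRNA and 2242, 2431 and 2584 with control siRNA, a change of -0.80 ± 0.07 (SE). The mean of its sets, one of them below the filter, was -0.37 (limma adjusted p = 0.0405). MRPS18A, one of several relatives of bacterial S18, had 844, 869 and 755 with LSD1 siRNA and 1323, 1242 and 1183 with control siRNA, a change of -0.60 ± 0.08 (SE). None of these 3 genes overlapped between the groups.

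MRPS2, a relative of bacterial S2, had 1802, 1751 and 1723 with LSD1 siRNA against 2800, 2606 and 2384 with control siRNA, a change of -0.56 ± 0.07 (SE). MRPS7 (-0.35), MRPS27 (-0.31), a protein with pentatricopeptide repeats, MRPS5 (-0.28) and MRPS35 (-0.25) followed, each without overlap. MRPS30 changed by -0.19, and its limma adjusted p was 0.0624 when LSD1 siRNA replicate 1 was left out and 0.0934 when replicate 2 was. MRPS18B, another relative of S18, had 4187, 4346 and 4323 with LSD1 siRNA and 3511, 3385 and 4883 with control siRNA. Control replicate 3 was its highest array and the other control arrays were its lowest. Its value of 0.15 did not pass, but it was 0.31 (limma adjusted p = 0.00125) without control replicate 3. Without that array MRPS14 also passed, at -0.30 (limma adjusted p = 0.0047) against -0.16 with all arrays.

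**Figure D2:**
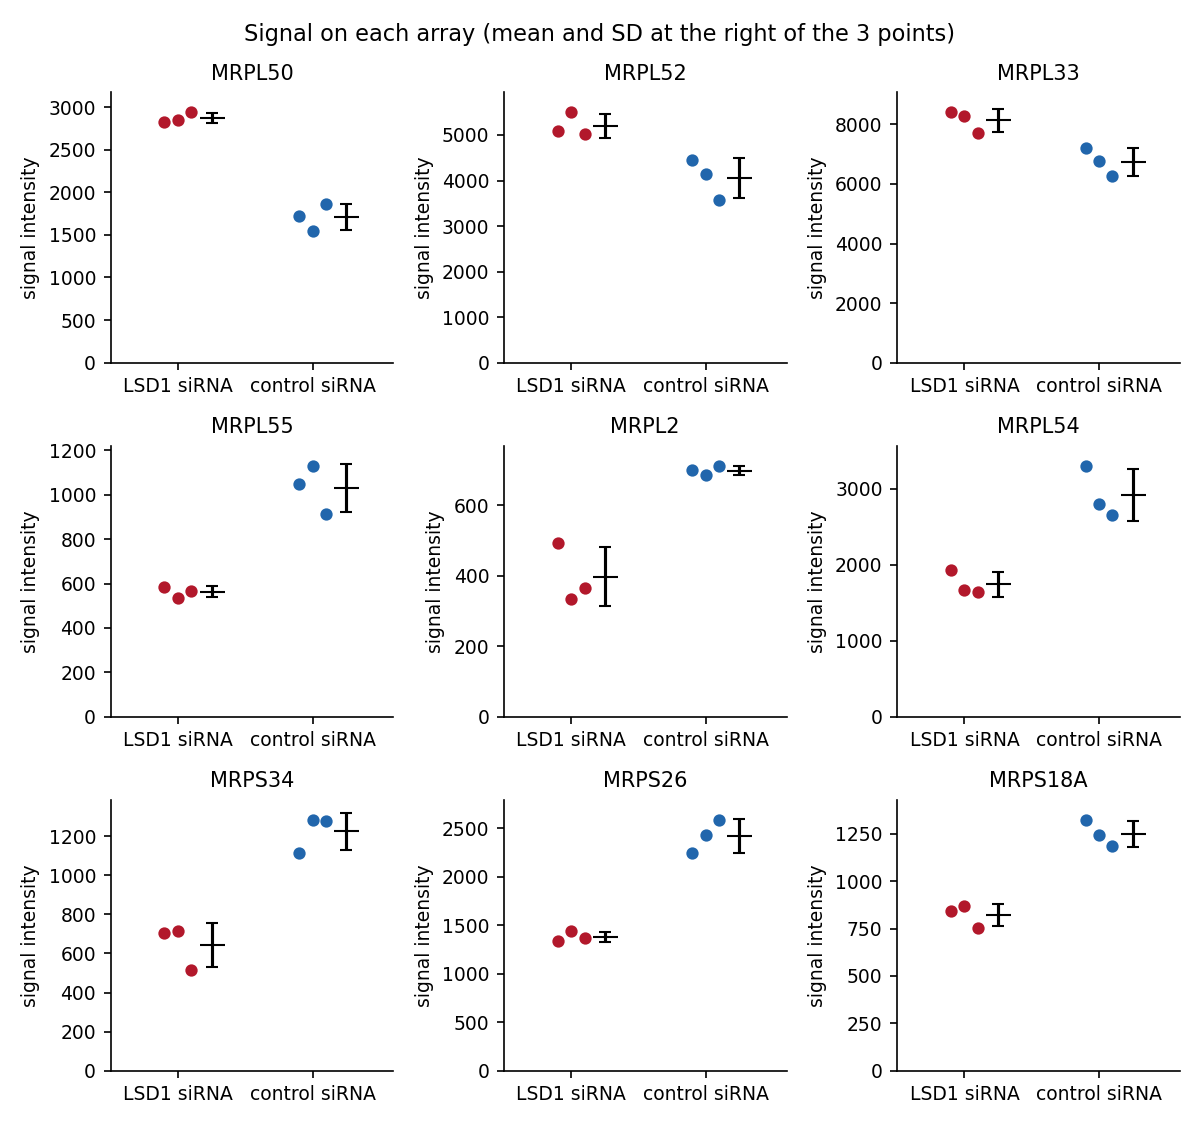
Deposited signal intensity (y axis, linear, from 0) of 9 members on each array, LSD1 siRNA left and control siRNA right; points are arrays in the order of their replicate number, and bars give the mean and SD of 3. MRPL50, MRPL52 and MRPL33 are higher with LSD1 siRNA, the other 6 are lower, and no pair of groups overlaps.

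Relatives of bacterial ribosomal proteins and the other members were both lower more often than higher. In the large subunit, 14 of 30 genes with a bacterial counterpart were lower and 1 was higher, with a median log2 change of -0.17. Of the 18 other large subunit genes, 10 were lower and 2 were higher, with a median of -0.28. In the small subunit, 5 of 15 genes with a counterpart and 7 of 12 others were lower, with medians of -0.14 and -0.19. MRPS18A and MRPS18B, relatives of bacterial S18 beside MRPS18C, were counted among the others, and with both counted as counterparts, a count added after the data were seen, the numbers were 6 of 17 and 6 of 10. The shares of these classes were not tested against each other. Over all genes tested, 21.3% were lower and 19.8% were higher. Among genes between the 10th and 90th percentile of the members' own log2 signal, 32.7% were lower and 28.8% were higher. The 5 of 15 small subunit genes with a counterpart (33.3%) lay near the lower share of that signal range. Of the non-coding symbols, MRPL20-AS1 was at -0.12 and did not pass, and MRPL45P2 was below the intensity filter.

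Array by array, the members' medians moved little and were lower on every LSD1 siRNA array than on every control array. The family was selected on the log2 changes of this same comparison, so this separation describes these arrays and supports nothing further. For each gene the mean log2 signal on the control arrays was subtracted, and the median was taken over the genes. The large subunit medians were -0.14, -0.18 and -0.17 on the LSD1 siRNA arrays and 0.05, 0.01 and -0.07 on the control arrays. The small subunit medians were -0.15, -0.16 and -0.17 with LSD1 siRNA and 0.05, 0.05 and -0.06 with control siRNA. Control replicate 3 thus lay closest to the LSD1 siRNA arrays in both subunits. Without it the numbers of lower genes were 27 in the large and 15 in the small subunit, and without control replicate 1, the array with the ACTB ratio of 1.74, they were 24 and 10. Of all genes tested, 41.5% passed in either direction without control replicate 3, 37% without control replicate 1 and 41.1% with all arrays.

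Cytosolic ribosomal proteins, which build the ribosomes outside the mitochondria, spread more widely between arrays. Their medians were -0.28, -0.14 and -0.19 with LSD1 siRNA and 0.21, -0.02 and -0.18 with control siRNA, so that the groups overlapped. Of 58 tested genes of this kind, 14 (24.1%) were lower and 2 were higher, with a median log2 change of -0.20. A negative value was found for 54 of these 58, for 60 of the 75 members and for 7170 of all 13822 genes tested. The median standard error was 0.096 over the cytosolic genes and 0.071 over the members. Over all genes tested, 21.3% were lower and 41.1% passed in either direction, against 27.6% of the cytosolic genes. RPL26L1 (-0.85), RPL39L (-0.59) and RPL22L1 (0.40), which encode close copies of common ribosomal proteins, had the smallest p of them. The difference between both kinds of ribosome was not tested.

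**Figure D3:**
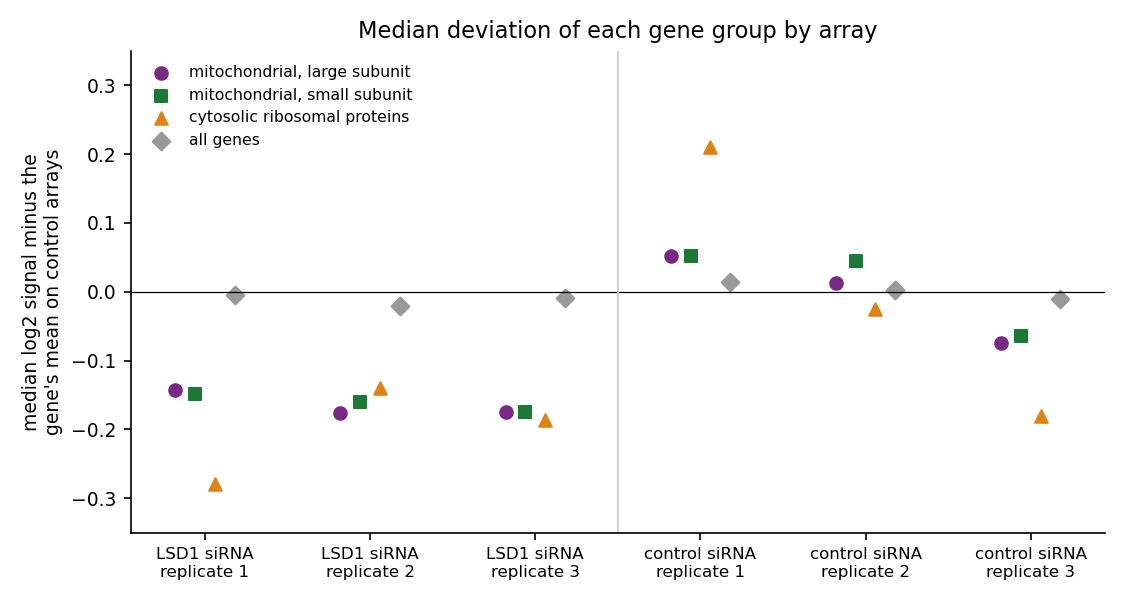
Median over genes of the log2 signal minus the gene's mean on the control arrays (y axis), for the mitochondrial large and small subunit, the cytosolic ribosomal proteins and all genes tested, on each array. The mitochondrial medians lie between -0.18 and -0.14 on the LSD1 siRNA arrays and between -0.07 and 0.05 on the control arrays, while the cytosolic medians run up to 0.21 on control replicate 1.

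Probe sets of the same gene gave a second reading for 37 members. Of the 31 with more than 1 set above the intensity filter, 21 had the same sign in all these sets and 10 did not. MRPL50 was higher in both bright sets, at 0.75 and 0.88, while a dim set with cross-hybridisation suffix gave 0.16. MRPL2 was lower in both of its sets, at -0.81 and -0.67, as was MRPS18A, at -0.60 and -0.68. MRPL4 was lower in 3 sets, at -0.40, -0.52 and -0.42, and MRPL42 at -0.36, -0.52 and -0.30. These are separate probes on the same arrays and the same RNA, so they check the probes and not the biology.

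Other members depended on the probe set. MRPL52 was at 0.36 in its bright set and at -0.02 in a dimmer one, and the mean of the sets was 0.17 (limma adjusted p = 0.12). MRPL43 was at -0.08 and -0.12 in its brighter sets and at 0.35 in the dimmest, and MRPL57 ranged from -0.19 to 0.56 over 4 sets and MRPL41 from -0.19 to 0.44 over 5. MRPL19 (-0.14 to 0.43), MRPL30 (-0.12 to 0.22), MRPL44 (-0.01 to 0.10), MRPS14 (-0.16 to 0.16), MRPS15 (-0.09 to 0.25) and MRPS18B (-0.01 to 0.15) also had sets of both signs above the filter. For MRPL20, MRPL23, MRPS5, MRPS18C, MRPS26 and MRPS31 a sign differed in a set below the filter.

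With the mean of all sets in place of the set used for each gene, several calls ended. MRPL12 was at -0.50 (limma adjusted p = 0.13), MRPL39 at -0.36 (adjusted p = 0.0699), MRPS27 at -0.25 (adjusted p = 0.447) and MRPS5 at -0.21 (adjusted p = 0.381). MRPL20, which fell by 0.29 in its bright set, was at 0.17 (limma adjusted p = 0.456) once 2 sets near background entered its mean. MRPL35 passed with the mean, at -0.41 (limma adjusted p = 0.00215), against -0.17 in the set used here, which passed without control replicate 1 (-0.26, adjusted p = 0.0264). A brighter MRPL35 set, set aside for its suffix, was at -0.48 and a dimmer one at -0.59.

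**Figure D4:**
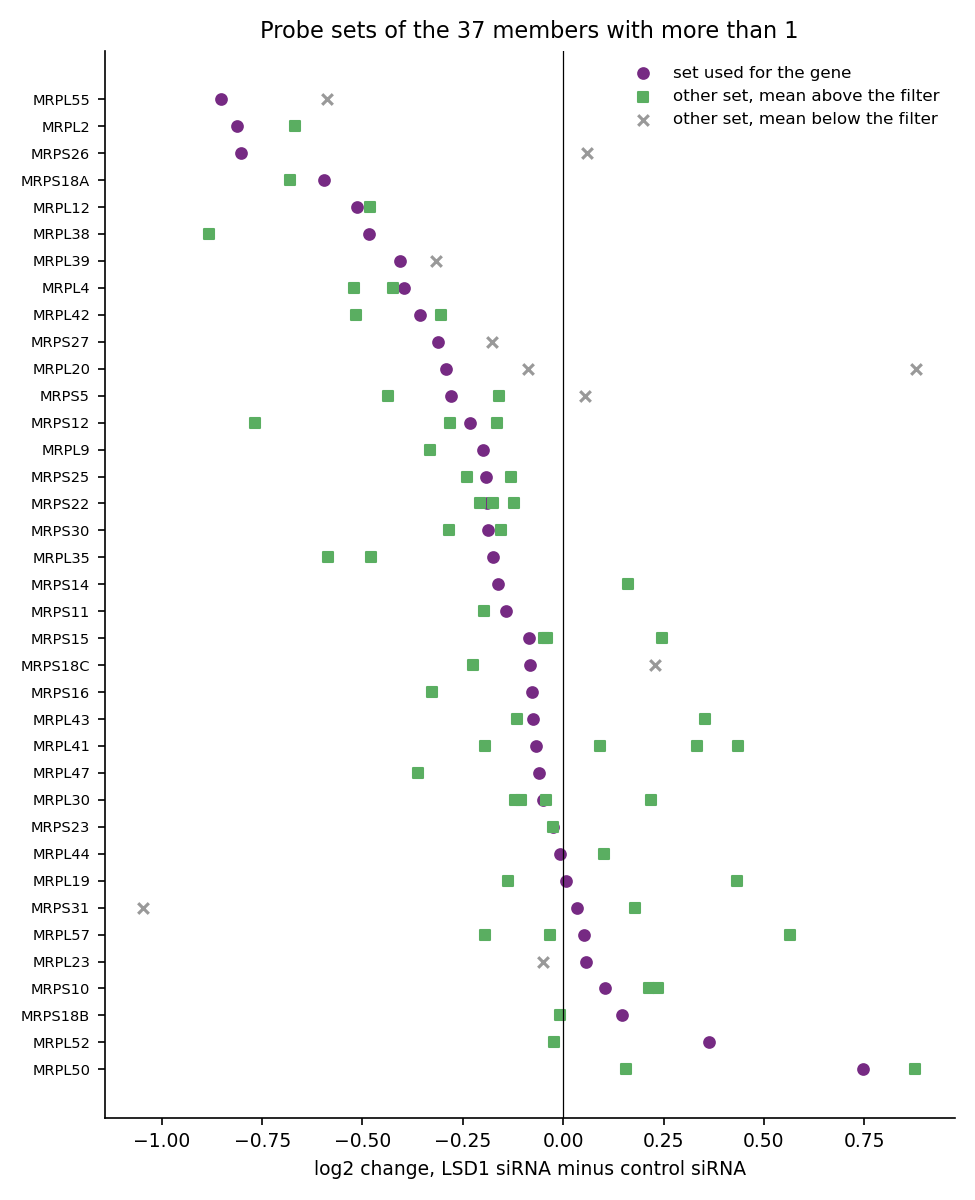
Log2 change (LSD1 siRNA minus control siRNA, x axis) of every probe set of the 37 members with more than 1; circles are the set that stands for the gene, squares other sets above the intensity filter and crosses sets below it. Genes at the top keep their sign across sets above the filter, and the squares scatter on both sides of 0 for MRPL41, MRPL57 and MRPL19.

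Promoter sequences were looked at because the members form a family that shares a cellular function. RefSeq windows (GRCh38.p14) of 300 bases, 250 before and 50 after a start site, were available for 67 members (83 windows) and 15843 protein-coding genes. Both strands were searched for short motifs. ETS factors, GABP among them, were represented by the letters CCGGAAG. YY1, a factor found at many promoters of housekeeping genes, was represented by AAGATGGCG. The E-box, bound by MYC and its relatives, was CACGTG. Factors of the SP and KLF families were represented by GGGCGG and NF-Y by CCAAT. The TATA box was TATAAA, and the NRF1 motif was searched as well. The last 150 bases before the start are shown for the largest rise and the largest fall of the large subunit and the 2 largest falls of the small subunit, 5′ to 3′ on the gene's strand, with matches in capitals. No printed match overlaps another.
MRPL50 (chr9:101398619-101398768, minus strand): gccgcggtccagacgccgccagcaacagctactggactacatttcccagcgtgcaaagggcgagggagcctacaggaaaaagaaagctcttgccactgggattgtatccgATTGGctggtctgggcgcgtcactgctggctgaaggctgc
MRPL55 (chr1:228109300-228109449, minus strand): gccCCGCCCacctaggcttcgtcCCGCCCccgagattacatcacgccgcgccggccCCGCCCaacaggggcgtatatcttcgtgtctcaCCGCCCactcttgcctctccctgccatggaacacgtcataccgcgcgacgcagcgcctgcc
MRPS34 (chr16:1773135-1773284, minus strand): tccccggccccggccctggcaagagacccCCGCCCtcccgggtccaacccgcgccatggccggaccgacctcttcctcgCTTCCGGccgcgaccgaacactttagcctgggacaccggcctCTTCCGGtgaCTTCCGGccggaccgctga
MRPS26 (chr20:3045902-3046051, plus strand): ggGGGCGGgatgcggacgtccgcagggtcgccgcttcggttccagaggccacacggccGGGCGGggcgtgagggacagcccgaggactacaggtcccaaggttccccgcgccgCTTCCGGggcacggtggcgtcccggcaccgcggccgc

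In these stretches MRPL50 holds the NF-Y letters, MRPL55 the SP and KLF letters at 4 places, and MRPS34 and MRPS26 both SP and KLF letters and ETS letters. The whole 300-base window of MRPL50 also holds SP and KLF letters and YY1 letters, which are not within the stretch shown. The ETS letters were present in windows of 29 of 67 members (43.3%) and in 16.5% of all protein-coding genes. The YY1 letters were present for 12 members (17.9%) and in 3.21% of all genes. The NRF1 motif was present for 13.4% of members and 9.67% of all genes, and the E-box for 13.4% and 10.9%. SP and KLF letters (59.7% and 64.3%), NF-Y letters (34.3% and 42.1%) and TATA letters (4.48% and 12.4%) had lower shares in members than in all genes. Counted per window, the SP and KLF letters turned, with 59% of the members' windows and 56.3% of all, and NF-Y stood at 33.7% and 34.7%. None of these differences was tested. A match describes letters in a window and is not a binding site.

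The letters were spread unevenly between the members that fell and those that did not pass, in both directions. Of 33 lower members with a window, 11 (33.3%) held the ETS letters and 2 (6.06%) the NRF1 motif, against 16 (51.6%) and 7 (22.6%) of 31 members that did not pass. The YY1 letters were found for 7 lower members (21.2%) and 3 that did not pass (9.68%). Of the 3 members that rose, 2 held ETS letters and 2 held YY1 letters. These shares rest on few genes and were not tested.

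**Figure D5:**
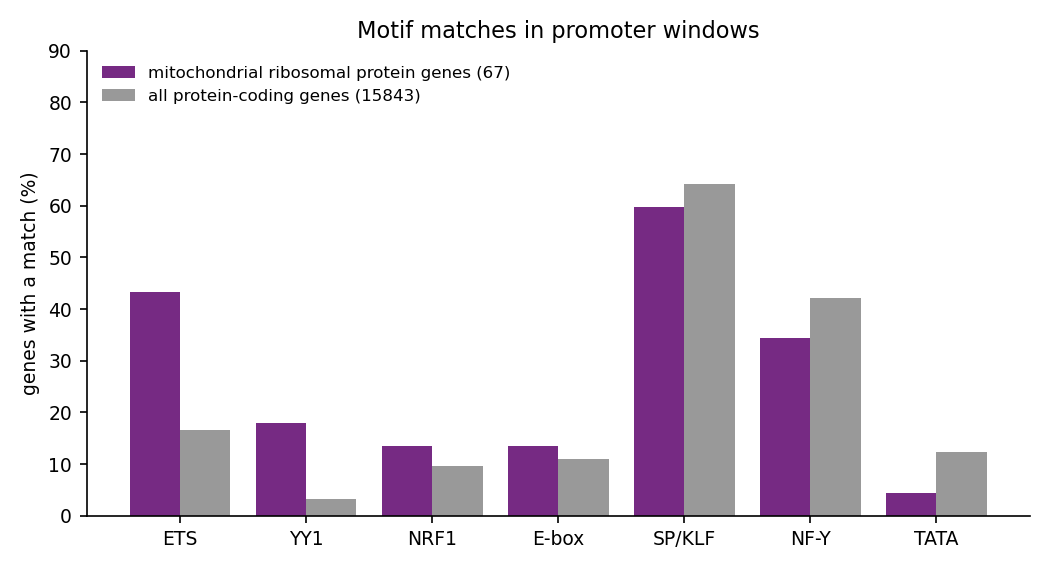
Share of genes (y axis, percent, from 0) whose promoter windows hold each motif, for the 67 mitochondrial ribosomal protein genes with a window and for 15843 protein-coding genes. ETS (43.3% of members) and YY1 (17.9%) stand above the share of all genes, 16.5% and 3.21%.

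Genes that act with these proteins were given from lists of mitochondrial translation. Of 4 measured mitochondrial ribosomal proteins with other symbols, 2 were lower and 1 was higher, where 41.1% of all genes passed in either direction. PTCD3, a small subunit protein with pentatricopeptide repeats, was at -0.39 and GADD45GIP1, a large subunit protein, at -0.41. The means of their sets were -0.09 (limma adjusted p = 0.437) and -0.28 (adjusted p = 0.0918). DAP3, a GTP-binding protein of the small subunit, had 10701, 12039 and 12458 with LSD1 siRNA and 10272, 10045 and 9138 with control siRNA, a rise of 0.26. It did not pass without LSD1 siRNA replicate 2 (0.24, limma adjusted p = 0.0615) or replicate 3 (0.21, adjusted p = 0.0795), and the mean of its sets was -0.23 (adjusted p = 0.266). KGD4, once counted as MRPS36 and now known as a subunit of the 2-oxoglutarate dehydrogenase complex, rose by 0.20, with an adjusted p of 0.0561 to 0.128 without LSD1 siRNA replicate 1 or 2 or control replicate 1 or 3.

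Assembly factors fold, modify and join the ribosomal RNAs and proteins. Of 25 tested, 14 (56%) were lower, 1 was higher and 10 did not pass, with a median log2 change of -0.25, where 21.3% of all genes were lower. The difference from the members was not tested. RPUSD4, a pseudouridine synthase needed for the large subunit RNA, had 646, 670 and 581 with LSD1 siRNA against 1314, 1526 and 1485 with control siRNA, a change of -1.17 ± 0.09 (SE). MRM3, a methyltransferase of that RNA, had 1862, 1727 and 1751 with LSD1 siRNA and 3756, 3607 and 3301 with control siRNA, a change of -0.99 ± 0.07 (SE). In both genes all LSD1 siRNA arrays lay far below the control arrays. METTL17, a small subunit assembly factor, was at -0.64, and the mean of its sets was -0.24 (limma adjusted p = 0.0538). The gene that rose was TFB1M, which dimethylates the small subunit RNA, at 0.37.

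Of 15 translation factors tested, 4 (26.7%) were lower and 1 was higher, with a median of -0.03, where 21.3% of all genes were lower and 19.8% higher. TUFM, the mitochondrial elongation factor Tu, had 6421, 5620 and 5626 with LSD1 siRNA and 8381, 7152 and 7619 with control siRNA, a change of -0.39 ± 0.08 (SE). LRPPRC, which stabilises mitochondrial messenger RNAs, was at -0.20, with a limma adjusted p of 0.0567 without LSD1 siRNA replicate 1, and at -0.42 with the mean of its sets. GUF1, a relative of bacterial elongation factor 4, rose by 0.35, and the mean of its sets was 0.20 (limma adjusted p = 0.0639).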

How the data were processed

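Per the submitters' processing notes, the authors used GCOS, Affymetrix Expression Console 1.1 and MAS5. The deposited values are linear signal intensity values of 54675 probe sets per array, without detection calls, and their trimmed mean is 500.1 on each array. Gene names came from the platform annotation: 41097 probe sets have 1 symbol, 1801 several and 11777 are not listed. Each gene was represented by its brightest set, x-suffix sets serving only genes without another set. A constant of 15, the 25th percentile of the signals, was added before taking log2, and genes whose mean exceeded the 40th percentile (a signal of about 28) were kept. A change on this scale understates that of dim genes. All 6 arrays entered limma 3.58.1 in R 4.3.3 (lmFit, eBayes with an intensity trend, no covariate, two-sided), with Benjamini-Hochberg adjustment over 13822 genes at 0.05. The procedure was tested on simulated data. Precision is limited by having 3 arrays per group, and p-values measure the spread between these arrays only.

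The members, lists and tests were chosen with earlier results of these data known. Named were KDM1A, the up to 8 largest rises and falls past the threshold in each subunit, members whose probe sets differ in sign, MRPL12, MRPL41, MRPS18A, MRPS30 and MRPS36 (now KGD4), and up to 3 genes with the smallest p per list; others, such as MRPL4, MRPL10, MRPL15, MRPL24, MRPL35, MRPL42, TFB1M, PPARGC1A and MYC, were chosen after their values were seen. Same-numbered arrays of the groups were checked for pairing. Figures were drawn with matplotlib 3.10.9.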

Additional observations from a re-analysis of the deposited data

How the results depend on the processing

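The numbers of lower members stayed within 1.5 times of 24 (large subunit) and 12 (small subunit) under every alternative run, with 18 and 8 as the lowest counts with no intensity trend. In that setting 35.2% of all genes passed in either direction, against 41.1% in the main fit. The subunit medians kept their sign. Of the 39 members called, 24 were called under all 15 alternatives fitted by gene. Testing every probe set gave 9309 calls in all (34.4% of 27085 sets), with 5 higher sets in the large and 2 in the small subunit. The small subunit had 1 higher gene with the replicate block (MRPS21, 0.18), 1 with the mean of all probe sets (MRPS10, 0.18), and 0 to 1 without each array in turn. Without 1 array, the large subunit had 21 to 27 lower and the small subunit 8 to 15 lower genes, while 35% to 41.5% of all genes passed. The replicate numbers did not pair the arrays (correlations of 0.01, -0.01 and 0.02 between same-numbered arrays, and not every array was closest to its own number), and the block moved all calls from 5674 to 5680. Signs turned only in values that had not passed or with the mean of all probe sets. With that mean, MRPL20 was at 0.17, MRPL41 at 0.12, MRPL43 at 0.054, MRPL44 at 0.047, MRPS15 at 0.018 and DAP3 at -0.23, and MRPS31 passed as lower (-0.28, limma adjusted p = 0.0383). MRPL44 was at 0.0029 with median centring. Without 1 array, values ran from -0.049 to 0.097 for MRPL19, -0.049 to 0.013 for MRPL44 and -0.021 to 0.071 for MRPS31. The causes were not tested.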

Other observations

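Of 17 tested genes of mitochondrial transcription and DNA maintenance, 4 (23.5%) were lower and 0 were higher by limma's test, with a median log2 change of -0.10, where 21.3% of all genes were lower. LONP1, the matrix protease, had 1874, 1990 and 1914 with LSD1 siRNA against 2469, 2674 and 2397 with control siRNA, a change of -0.38 ± 0.07 (SE). SUPV3L1, an RNA helicase, was at -0.31 and TWNK, the helicase of mitochondrial DNA, at -0.35, with adjusted p of 0.056 without LSD1 siRNA replicate 3, 0.0577 without control replicate 1 and 0.0507 without control replicate 2. At an unadjusted limma p of 0.05, 6 of the 17 were lower and 1 was higher, where 3455 of all 13822 genes were lower and 3193 higher. TFAM, which packages mitochondrial DNA, passed as lower at -0.27 (limma adjusted p = 0.0293), though its arrays overlapped between the groups. POLRMT, the mitochondrial RNA polymerase, was at 0.02 and did not pass.

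Of 9 regulators of nuclear genes for mitochondrial proteins, 3 were lower and 1 was higher (44.4% in either direction, where 41.1% of all genes passed). NRF1, a transcription factor that binds many such promoters, had 353, 348 and 318 with LSD1 siRNA and 551, 531 and 592 with control siRNA, a change of -0.69 ± 0.10 (SE). GABPB1, the partner of the ETS factor GABPA, had 1266, 1346 and 1244 with LSD1 siRNA and 1686, 1825 and 1807 with control siRNA, a change of -0.46 ± 0.07 (SE). GABPA itself was at 0.15 and did not pass. PPRC1, a coactivator, was at -0.59 and its relative PPARGC1A rose by 0.76, to 149, 154 and 172 with LSD1 siRNA against 94.4, 74.4 and 94.8 with control siRNA. MYC (0.04) and YY1 (-0.09) did not pass.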
